A study of Bos taurus with 13 samples.

Results

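The tripartite motif (TRIM) genes encode ubiquitin ligases and related proteins built from a RING domain, B-box zinc fingers and a coiled coil, followed by a C-terminal part that differs between subfamilies. Several of them bind viral components or act on the cytosolic RNA and DNA sensing pathways that switch on type I interferon, and some are themselves switched on by interferon, while others act in chromatin silencing, at microtubules or on intracellular membranes. In blood, they are expressed by leukocytes and, for a few members, by erythroid cells. The members described here are all genes in the count tables whose name is TRIM followed by a number, except *TRIM25* and *TRIM58*, with at least 50 reads over all cows. Of 16095 named genes, 49 carried such a TRIM name, 2 were left out by this rule, 12 did not reach 50 reads, and 35 were members. The gene just inside this limit was *TRIM72*, with 57 reads, and the one just outside was *TRIM15*, with 49, while the other 11 below it had between 0 and 12 reads. These 35 genes lie on 16 chromosomes, and no member shares exon bases with another named gene or with the entry that collects unnamed genes. Of the 35 members, 32 passed the filter on low counts and were tested, and *TRIM46*, *TRIM66* and *TRIM72* did not pass it and are described by level.

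The study asked how blood gene expression differs between cows at either end of the distribution of milk cortisol, a marker of stress. All animals were Italian Red Pied cows by the labels, a breed that the study calls Italian Simmental, and their blood was drawn from the tail vein into tubes that preserve RNA, and globin transcripts were not depleted. Counts of 13 samples were analysed, 7 with high milk cortisol (numbered as replicates 1 to 7) and 6 with low milk cortisol (replicates 8 to 13), and the labels name no treatment. The study selected 10 cows per group, the milk cortisol of a single animal was not used here, and the p-values below measure the spread between these samples. Of the markers of blood cells, 15 of 15 T cell, 9 of 10 B cell, 10 of 10 monocyte, 11 of 15 neutrophil, 9 of 11 cytotoxic and NK, 10 of 14 erythroid, 7 of 9 platelet and 3 of 8 eosinophil markers passed the filter on low counts.

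Reads counted on named genes ranged from 11045599 to 28124575 per cow, at which 3 reads, the limit that a count of 0 allows, equal between 0.110 and 0.270 CPM (the reads of a gene relative to the TMM-scaled total of its library). Replicate 4 of the high group stood apart from the other libraries. It held the highest value of 27.4% and the lowest of 24.5% of all 11033 genes tested. Its median absolute deviation from the median of each gene was 0.409 on the log2 scale, against 0.137 to 0.236 in the other 12. Among the 32 tested TRIM genes, this cow had the highest level of 5 (*TRIM23*, *TRIM33*, *TRIM36*, *TRIM45* and *TRIM59*) and the lowest of 8 (*TRIM7*, *TRIM10*, *TRIM11*, *TRIM21*, *TRIM27*, *TRIM28*, *TRIM41* and *TRIM56*). The 10 erythroid markers had a higher mean score in the high group, 0.412 ± 0.714 (SD, n = 7) against -0.481 ± 0.269 (SD, n = 6) on the log2 scale (two-sided exact permutation test, p = 0.00932), with ranges of -0.411 to 1.64 and -0.878 to -0.184. Haemoglobin genes took 0.0114% to 0.815% of the counts, depending on the cow. In bulk blood, fewer cells of a type and less RNA per cell cannot be told apart, which holds for every difference given below.

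To compare levels between genes, CPM was divided by exon length in kilobases. *TRIM28*, the corepressor that KRAB zinc finger proteins bring to chromatin, had the highest level, with 152 ± 25.4 CPM per kilobase (SD, n = 13). *TRIM38*, which restrains innate immune signalling, followed with 60.6 ± 10.7 CPM per kilobase. *TRIM27*, *TRIM21* and *TRIM26* came next with 47.9 ± 4.2, 47.9 ± 9.47 and 44.1 ± 9.06 CPM per kilobase, and these 3 did not differ beyond their spread. The family thus spanned the range from 152 down to 0.109 CPM per kilobase for *TRIM46*, a microtubule-associated member.

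**Figure D1:**
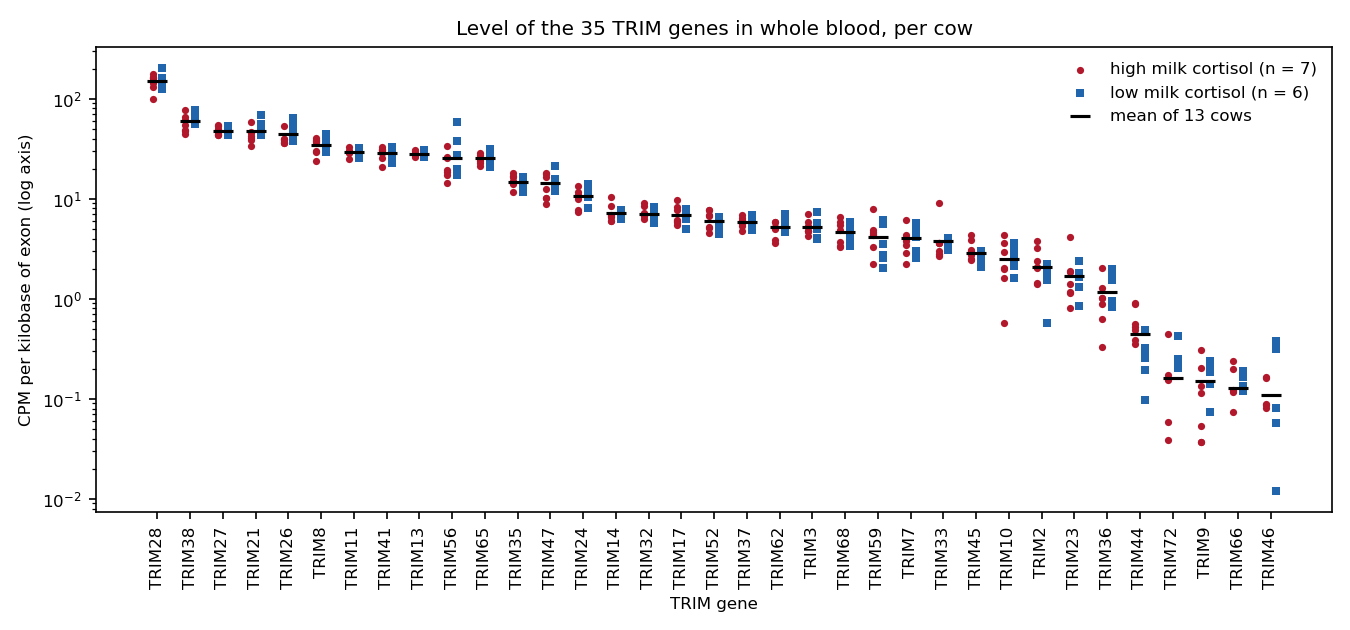
Level of each of the 35 TRIM genes per cow, in CPM per kilobase of exon on a log axis, with genes ordered by their mean. Red circles are the 7 cows of the high group, blue squares the 6 of the low group, and black bars the mean of 13 cows. The means run from 152 for *TRIM28* to 0.109 for *TRIM46*, and 8 values of 0 among the genes of lowest level are not drawn.

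Members with similar levels differed in how much they varied between cows. *TRIM13*, a ligase anchored in the endoplasmic reticulum, had the smallest coefficient of variation, 5.41% over 13 cows, where counting alone would give 3.59%. *TRIM11* and *TRIM27* varied by 7.94% and 8.77%. *TRIM56* had a level close to that of *TRIM13* per kilobase (25.8 ± 12.1 against 28.1 ± 1.52, SD, n = 13) but varied by 46.7%, where counting alone would give 3.50%. *TRIM33* varied by 44.3% and *TRIM23* by 51.2%, and in both, replicate 4 of the high group was the highest cow, with 31.8 CPM of *TRIM33* where the other 12 cows had between 9.21 and 14.0, and 8.11 CPM of *TRIM23* where the others had between 1.6 and 4.69. For the genes of lowest level, the counting error itself was large, as for *TRIM44* (55.3%, with 33.3% from counting), *TRIM9* (57.0%, with 42.4%) and *TRIM46* (109%, with 65.8%).

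To ask which TRIM genes follow the interferon response from cow to cow, an interferon score was made for each cow. It is the mean log2 CPM, centred per gene, of 38 interferon-response genes above the filter (of 50 listed, among them *ISG15*, *MX2*, *OAS2*, *IFIT1* and *RSAD2*, and no TRIM gene), and it is given below in units of its SD over the 13 cows. Scores ran from -1.11 to 2.00 and were divided at their widest gap into a lower and an upper set. The lower set held 9 cows, 6 high and 3 low, with scores up to 0.03, and the upper set held 4 cows with scores of 0.96 and above. Those 4 were replicates 10 (0.96), 12 (0.97) and 8 (2.00) of the low group and replicate 5 of the high group (1.38). The gap between the sets was 0.932 SD. The next widest gap, 0.627 SD, lay inside the upper set, between 1.38 and 2.00. Whether the scores form distinct clusters was not tested.

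Among the 32 TRIM genes tested, 2 rose with the interferon score, *TRIM26* and *TRIM56*, and 0 fell, at an adjusted p of 0.05 in a fit with the cortisol group as a covariate (edgeR's quasi-likelihood test, Benjamini-Hochberg adjustment over 11033 genes). Over all genes tested, 0.653% rose and 0.0453% fell by the same rule. The genes that rose numbered 72, and 31 of them belong to the score itself. The 38 score genes, which rise with their own mean by construction, were among the 11033 genes of the adjustment. An adjustment without them was not made, so how far the 2 TRIM calls rest on them was not tested. At an unadjusted p below 0.05, 5 TRIM genes had a positive and 2 a negative slope, where the shares of all genes were 6.95% and 11.3%. A positive slope was found in 18 of 32 members and a negative one in 14, and the share of all genes with a positive slope was not taken. The median slope was 0.04 for the members and -0.0011 for all genes, as log2 change per SD of the score.

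**Figure D2:**
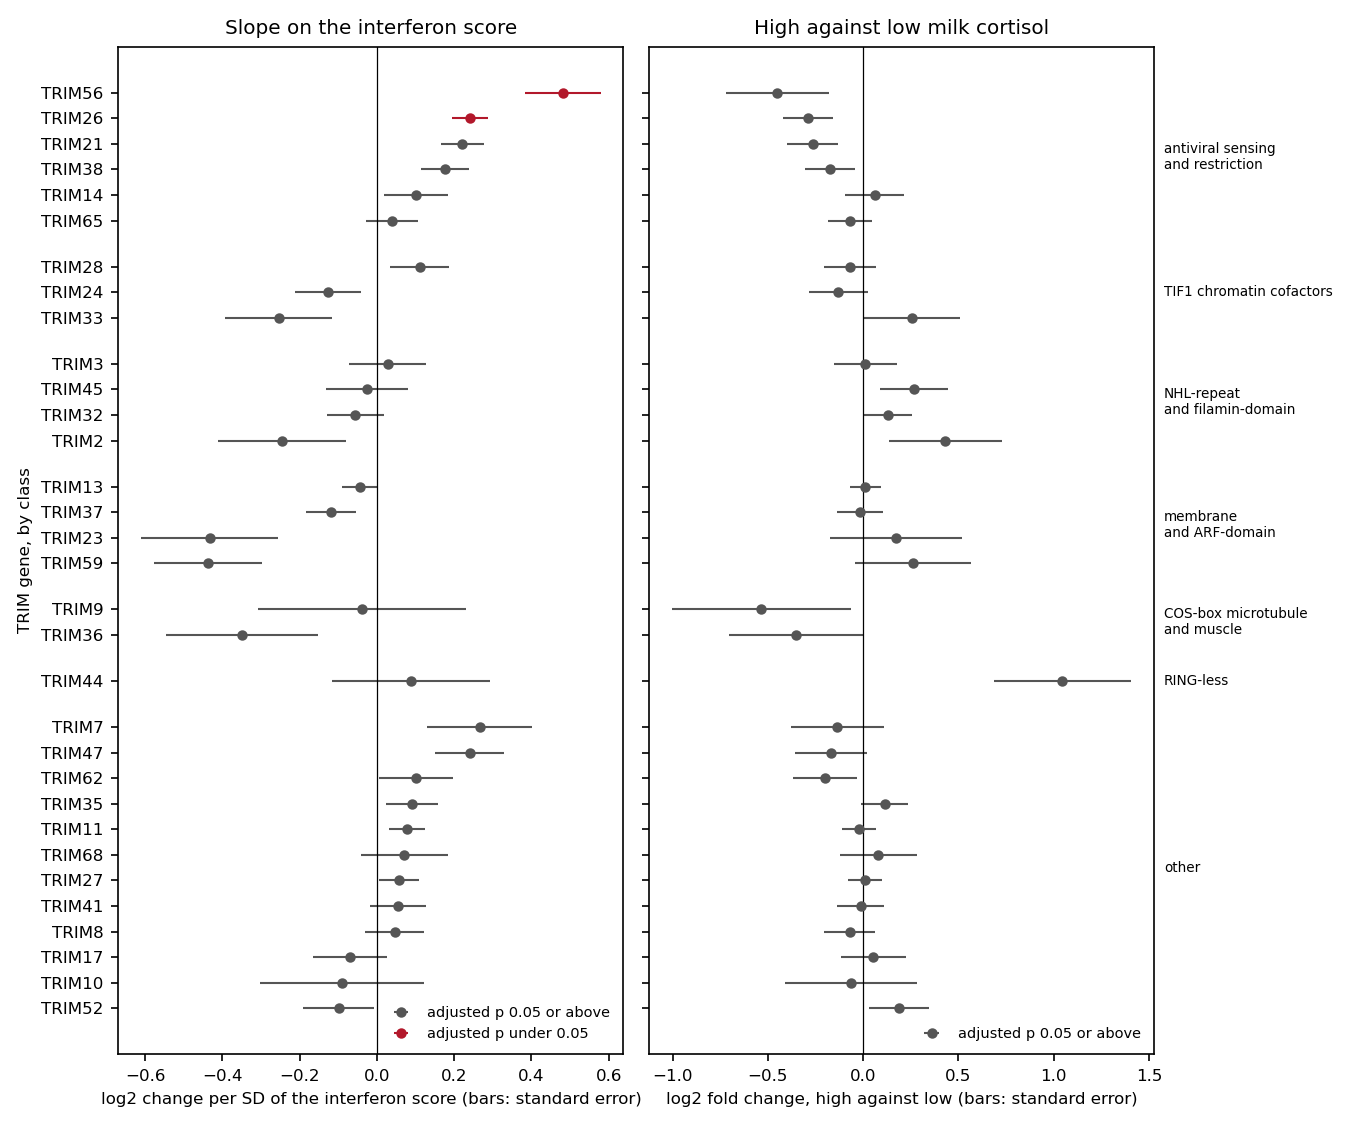
Slope on the interferon score (left, log2 change per SD of the score) and log2 fold change of the high against the low cortisol group (right) for the 32 tested TRIM genes, grouped by class. Points are estimates of edgeR's quasi-likelihood fits and bars their standard errors, with red for an adjusted p below 0.05. *TRIM56* (0.48) and *TRIM26* (0.24) are the red points on the left, and the right panel has none.

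All 6 members of the class set here as antiviral sensing and restriction (*TRIM14*, *TRIM21*, *TRIM26*, *TRIM38*, *TRIM56* and *TRIM65*) had a positive slope, with a median of 0.20, and both genes that passed the adjusted threshold belong to it. Since the class was drawn up with earlier results of these data known, and the share of all genes with a positive slope was not taken, this count is a description.

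*TRIM26* (chromosome 23, 28563086 to 28579480, plus strand of UMD3.1) encodes a ubiquitin ligase that acts on IRF3 and on the kinase complexes of interferon induction. The 9 cows with low scores had between 62.8 and 84.2 CPM of *TRIM26*, and the 4 cows with high scores had 80.1, 92.5, 100 and 111 CPM (low replicate 12, high replicate 5, low replicate 10 and low replicate 8). The sets overlapped by a single cow, low replicate 13, whose 84.2 CPM was above low replicate 12. The slope of *TRIM26* was 0.24 per SD of the score (standard error 0.05, edgeR adjusted p = 0.0198).

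*TRIM56* (chromosome 25, 36233862 to 36236129, minus strand) encodes an RNA-binding ligase that restricts several RNA viruses, bovine viral diarrhoea virus among them, and takes part in sensing by TLR3 and STING. It had the steepest positive slope of the family, 0.48 per SD of the score (standard error 0.10, edgeR adjusted p = 0.0284). Its level was between 31.5 and 60.6 CPM in the 9 cows with low scores, and 44.1, 73.7, 83.5 and 129 CPM in low replicate 12, high replicate 5, low replicate 10 and low replicate 8. Low replicate 12 thus lay within the range of the 9, and the other 3 lay above it.

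Both calls depended on single cows and on the genes of the score. With a score from a core list of 11 interferon genes, neither passed (edgeR adjusted p = 0.0537 for *TRIM26* and 0.121 for *TRIM56*). *TRIM26* and *TRIM56* kept a positive slope whichever cow was left out (0.19 to 0.26 and 0.30 to 0.53), but both lost the adjusted threshold without high replicate 5 (edgeR adjusted p = 0.226 and 0.0995), low replicate 8 (0.164 and 0.185), low replicate 9 (0.0865 and 0.107) or low replicate 11 (0.0804 and 0.0951), and *TRIM56* also without low replicate 10 (0.0516). Without low replicate 8 the slope of *TRIM56* was 0.30, and without high replicate 4, the library that stood apart, both genes passed (edgeR adjusted p = 0.0186 and 0.0495). In a fit on the 9 cows with low scores alone, added after the scores were seen, the slopes of *TRIM26* and *TRIM56* were 0.07 and 0.19 (edgeR adjusted p = 0.560 and 0.374) and 0 of 33 members tested passed.

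*TRIM21*, *TRIM38* and *TRIM47* also had positive slopes with an unadjusted p below 0.05 that did not pass adjustment, and they are named after their values were seen. *TRIM21* (chromosome 15, 51472486 to 51483656, plus strand), the cytosolic receptor for antibody-coated virus, had a slope of 0.22 (standard error 0.06, edgeR adjusted p = 0.0964). It was at 97.3, 103, 107 and 126 CPM in the 4 cows with high scores and at 62.0 to 91.2 CPM in the other 9, so that the lowest of the 4 was above the highest of the 9. Its adjusted p was 0.0123 by DESeq2, 0.0198 without the group covariate and 0.0464 without low replicate 13, so that 3 members passed in each of these fits. It was 0.189 with the core interferon list, 0.362 in the 9 cows with low scores, and up to 0.505 with 1 cow left out, the highest without high replicate 5. *TRIM38* had a slope of 0.18 (standard error 0.06, edgeR adjusted p = 0.185), with 114 to 136 CPM in the 4 cows and 77.9 to 115 CPM in the others. *TRIM47* had a slope of 0.24 (standard error 0.09, edgeR adjusted p = 0.195), and its values overlapped widely, with 28.8 to 47.5 CPM in the 4 cows and 20.02 to 40.3 CPM in the others. The remaining antiviral members, *TRIM14*, an adaptor at the mitochondrial RNA sensing complex, and *TRIM65*, a ligase of the RNA sensor encoded by *IFIH1*, had slopes of 0.10 ± 0.08 and 0.04 ± 0.07 (standard errors).

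**Figure D3:**
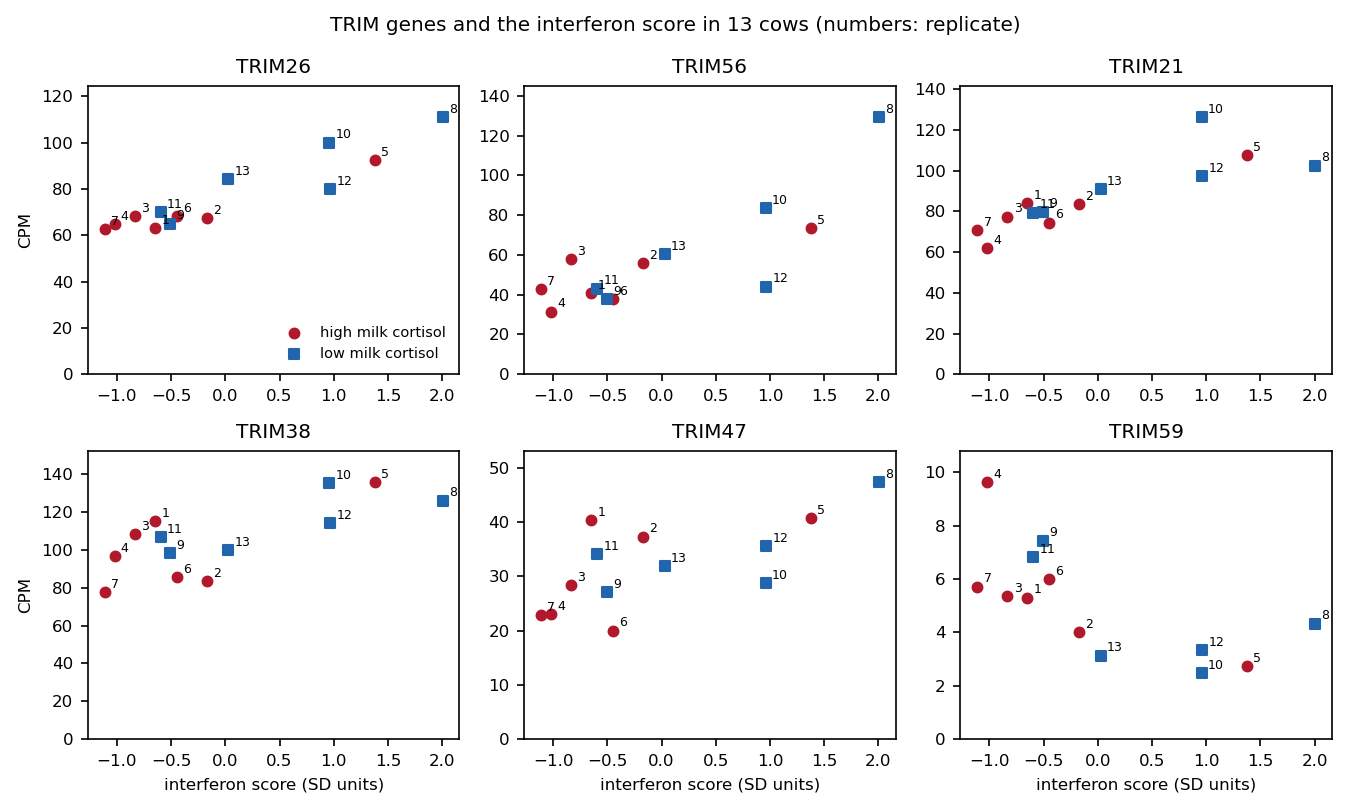
CPM of 6 TRIM genes against the interferon score (SD units) in 13 cows, with red circles for the high and blue squares for the low cortisol group and the replicate number beside each point. *TRIM26*, *TRIM56*, *TRIM21* and *TRIM38* have their highest values in cows with scores of 0.96 or above, though *TRIM56* in low replicate 12 is not raised. *TRIM47* overlaps widely, and *TRIM59* is highest, at 9.65 CPM, in high replicate 4.

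The 3 negative slopes with the smallest p were those of *TRIM59*, *TRIM23* and *TRIM37*, of the class set here as membrane and ARF-domain. The class is a mixed one, and its members do not share a single domain. *TRIM33*, a chromatin cofactor, was close behind *TRIM37* (unadjusted p = 0.0856 and 0.0850 by edgeR), and *TRIM13*, the other member of the class, had a slope of -0.04 (unadjusted p = 0.367). *TRIM59*, a ligase of the endoplasmic reticulum membrane, had a slope of -0.44 (standard error 0.14, edgeR adjusted p = 0.161). *TRIM59* was at 2.48 to 4.33 CPM in the 4 cows with high scores and at 3.13 to 9.65 CPM in the others, which overlapped. *TRIM23*, which carries a GTPase domain of the ARF type beside its RING, had a slope of -0.43 (standard error 0.18, edgeR adjusted p = 0.228), and *TRIM37*, a ligase of peroxisomes and centrosomes, -0.12 (standard error 0.06, edgeR adjusted p = 0.329). No negative slope passed the adjusted threshold. High replicate 4, with the second lowest score, had the highest *TRIM59* (9.65 CPM) and the highest *TRIM23* (8.11 CPM), and without it their slopes were -0.39 and -0.33.

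Because a correlation over all 13 cows would span the gap in the scores, none is given. Within the 9 cows with low scores, the correlation of log2 CPM with the score passed an adjusted p of 0.05 for 0 of 32 members and for 0% of all genes (two-sided exact permutation test over 362880 orders). The correlation pools 6 high and 3 low cows without a group term, so score and group cannot be told apart in it. In the fit on these cows that kept the group, *TRIM26* had a slope of 0.07 (edgeR adjusted p = 0.560). Correlations within each group were not taken. Without adjustment, 5 members were positively correlated at p below 0.05 (*TRIM3*, *TRIM21*, *TRIM26*, *TRIM27* and *TRIM62*) and 3 negatively (*TRIM2*, *TRIM23* and *TRIM59*), against 7.89% and 9.74% of all genes. For *TRIM21*, Pearson's r was 0.80 (exact permutation p = 0.00832, adjusted p = 0.233) and Spearman's rho was 0.70 (exact permutation p = 0.0433, adjusted p = 0.549). For *TRIM26*, r was 0.73 (exact permutation p = 0.0144, adjusted p = 0.239) and rho was 0.70 (exact permutation p = 0.0433, adjusted p = 0.549). For *TRIM56*, r was 0.54 (exact permutation p = 0.137, adjusted p = 0.384) and rho was 0.35 (exact permutation p = 0.359, adjusted p = 0.730). Without high replicate 7 and low replicate 13, the cows farthest from the median score, r was 0.70 for *TRIM21* (exact permutation p = 0.0940), 0.28 for *TRIM26* (exact permutation p = 0.557) and 0.40 for *TRIM56* (exact permutation p = 0.378). Leaving out cows at the ends also narrows the range of the score. With 1 cow left out, r of *TRIM26* was 0.50 without low replicate 13 and 0.69 without high replicate 7, so low replicate 13 moved it more. The lower r without both cows rests on 7 cows, which cannot show that a relation is absent.

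**Figure D4:**
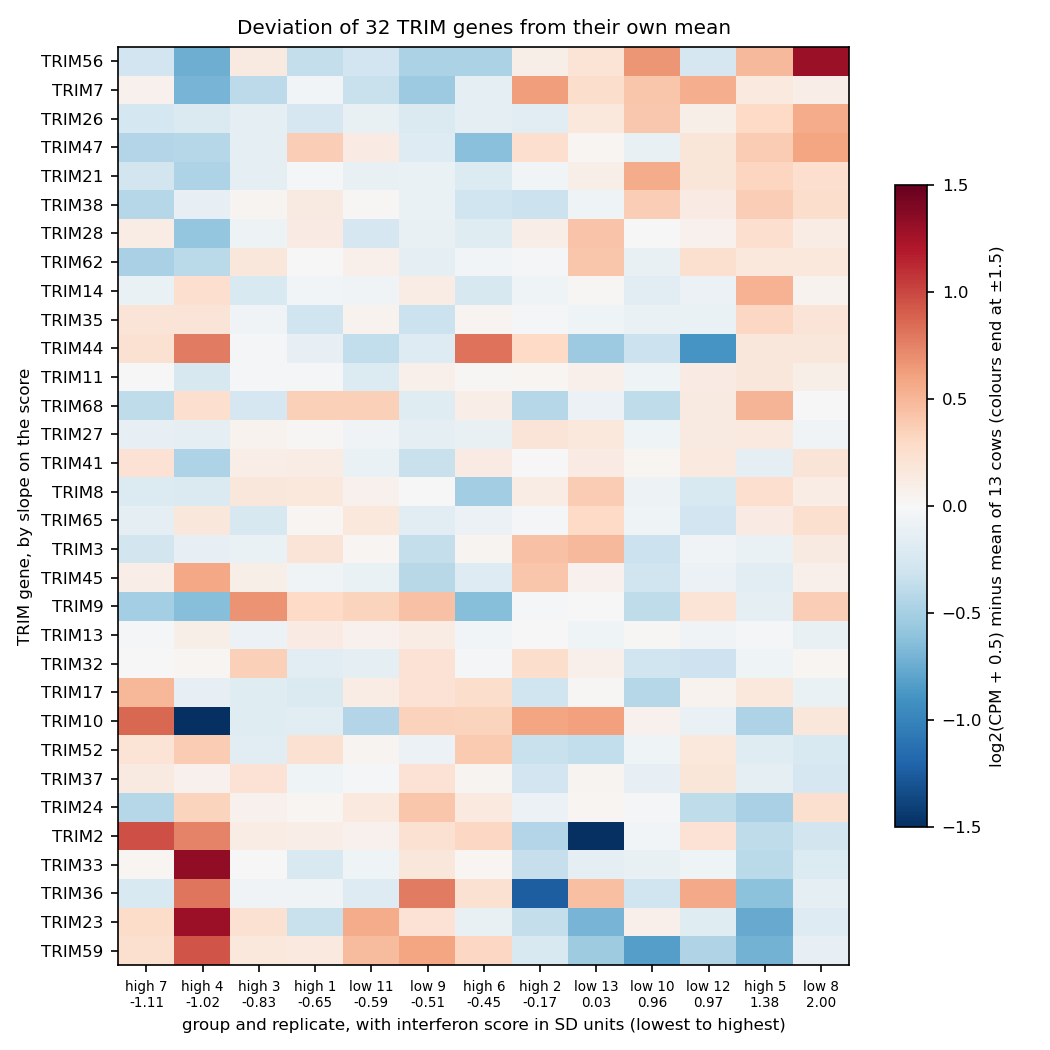
Deviation of the 32 tested TRIM genes from their own mean over 13 cows, as log2(CPM + 0.5), with cows ordered from the lowest interferon score (-1.11, high replicate 7) to the highest (2.00, low replicate 8) and genes ordered by slope. Among the upper rows, which also hold *TRIM7* and *TRIM47*, *TRIM26*, *TRIM21* and *TRIM38* are above their mean in the 4 columns on the right. They are palest there in low replicate 12. *TRIM56* is above its mean in these columns except low replicate 12, where it is below. High replicate 4 is dark in many rows, red for *TRIM33* and *TRIM23* and blue for *TRIM10*.

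The genes that sense viral nucleic acid and pass the signal on, with which several TRIM proteins interact, were followed as a list of 30 genes, of which 29 passed the filter. With the interferon score, 6 of 29 rose and 0 fell at an adjusted p of 0.05 (edgeR), against 0.653% and 0.0453% of all genes. Of these, 5 belong to the score (*DDX58*, *IFIH1*, *DHX58*, *IRF7* and *STAT2*). Of the 23 list genes outside the score, 1 rose, *IRF9*, a transcription factor of interferon signalling, with a slope of 0.46 (standard error 0.08, edgeR adjusted p = 0.00484). Kinases, adaptors and factors on which TRIM proteins are known to act did not pass, with slopes of 0.27 for *IRF3*, 0.16 for *MAVS*, -0.30 for *TBK1* and -0.10 for *TMEM173*, which encodes STING (edgeR adjusted p = 0.135, 0.210, 0.232 and 0.486). Between the cortisol groups, 0 of the 29 list genes passed, against 0% of all genes. An edgeR unadjusted p below 0.05 was found for 2 of 29 (*IFIH1* and *STAT2*, both of the score), against 2.09% of all genes. Of the blood cell marker lists, 0 genes passed with the score in the neutrophil, monocyte, B cell, cytotoxic, eosinophil, erythroid and platelet lists, and 1 of 15 T cell genes fell. With the neutrophil and T cell scores as covariates, the slope of *TRIM26* was 0.26 (edgeR adjusted p = 0.0329) and that of *TRIM56* 0.49 (adjusted p = 0.0630).

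Some members lie close together in the genome. *TRIM26* and *TRIM10*, both in the TRIM cluster of chromosome 23, had slopes of 0.24 and -0.09, and *TRIM65* and *TRIM47*, which lie 10.2 kb apart on chromosome 19, had slopes of 0.04 and 0.24. *TRIM7*, *TRIM41* and *TRIM52*, within one stretch of chromosome 7, had slopes of 0.27, 0.06 and -0.10. Differences between these slopes were not tested.

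The slope on the interferon score was then compared between the cortisol groups. By a group by score interaction, 0 of 32 members differed at an adjusted p of 0.05 (smallest edgeR adjusted p 0.994) and 0 at an unadjusted p below 0.05, where the shares of all genes were 0% and 2.26%. DESeq2 and limma-voom also gave 0 members by either rule. The slope of *TRIM26* was 0.26 in the low and 0.22 in the high group, and that of *TRIM56* was 0.58 and 0.35 (difference -0.23, standard error 0.20). Of the 7 high cows, 1 had a score above the gap, so the slope in the high group rests on a single cow at that end. Without high replicate 4, 2 members had an unadjusted p below 0.05 in this comparison, and 0 passed adjustment. The share of all genes in that fit was not taken.

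Between the high and low cortisol groups, 0 of 32 TRIM genes differed at an adjusted p of 0.05, which was also the share of all genes (0%, smallest edgeR adjusted p 0.998). At an unadjusted p below 0.05, *TRIM44* was higher and *TRIM26* lower in the high group, 2 of 32 members against 2.09% of all genes. DESeq2 likewise called 0 of 35 members and gave 2 at an unadjusted p below 0.05, and limma-voom called 0 and gave 1. Lower values in the high group were found for 17 of 32 members, against 46.7% of all genes, and the median log2 fold change was -0.01 for the members and 0.01 for all genes. The log2 fold changes ran from -0.53 for *TRIM9* to 1.05 for *TRIM44*.

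*TRIM44* (chromosome 15, 66987987 to 67099792, plus strand) encodes a member without a RING domain, with a zinc finger of the kind found in ubiquitin proteases. The lowest, median and highest values of *TRIM44* were 0.657, 0.968 and 1.71 CPM in the high group and 0.180, 0.492 and 0.919 CPM in the low group. All 7 high cows were above the median of the low group, and the ranges overlapped. These levels rest on 2 to 27 reads per cow. The log2 fold change was 1.05 (standard error 0.36, edgeR unadjusted p = 0.0102, adjusted p = 0.998), and an exact permutation test of log2 CPM gave p = 0.00583 without adjustment over genes. With the haemoglobin share as a covariate it was 0.99 (edgeR unadjusted p = 0.0547), and 0 members then had an unadjusted p below 0.05. Whichever cow was left out, the log2 fold change of *TRIM44* was between 0.91 and 1.33, with an edgeR unadjusted p between 0.00294 and 0.0247.

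*TRIM26* was at 62.8, 67.5 and 92.5 CPM (lowest, median and highest) in the high group and at 65.1, 82.1 and 111 CPM in the low group. Of the 7 high cows, 6 were below the median of the low group, and replicate 5, at 92.5 CPM, was the exception. The study lists *TRIM26* as lower in its high group and more methylated there, with q below 0.05 in both of its analyses. Methylation was not analysed here. In these samples, the log2 fold change of *TRIM26* was -0.29 (standard error 0.13, edgeR unadjusted p = 0.0444, adjusted p = 0.998, exact permutation p = 0.0693). DESeq2 gave -0.29 as well (adjusted p = 0.9999), so the call of the study was not recovered here, and the reason was not tested. The interferon score moved in the same direction, with -0.267 ± 0.557 (SD, n = 7) in the high and 0.312 ± 0.662 (SD, n = 6) in the low group on the log2 scale (two-sided exact permutation test, p = 0.108), and 3 of the 4 cows above the gap were of the low group. With the score as a covariate, the log2 fold change of *TRIM26* was -0.07 (edgeR unadjusted p = 0.484). *TRIM21* (-0.26), *TRIM56* (-0.45) and *TRIM38* (-0.18) were the next members by p among those with negative values, with edgeR unadjusted p of 0.0652, 0.116 and 0.204. With the score as a covariate, *TRIM21* was at -0.07 and *TRIM56* at 0.05. Because 3 of the 4 cows above the gap were of the low group, score and group cannot be told apart here. Whether the score accounts for these differences was not tested. The unadjusted p of *TRIM26* was below 0.05 without high replicate 5, low replicate 9 or low replicate 11, and between 0.0503 and 0.142 when any one of the other 10 cows was left out, where *TRIM44* alone stayed below 0.05. Without high replicate 5, the cow with a high score in the high group, 5 members instead of 2 had an unadjusted p below 0.05, and without low replicates 9 and 11 in turn 4 and 3 had. The shares of all genes in these fits were not taken, so the counts describe the members only. Without high replicate 5, the difference in the interferon score itself was -0.77 (exact permutation p = 0.0195).

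**Figure D5:**
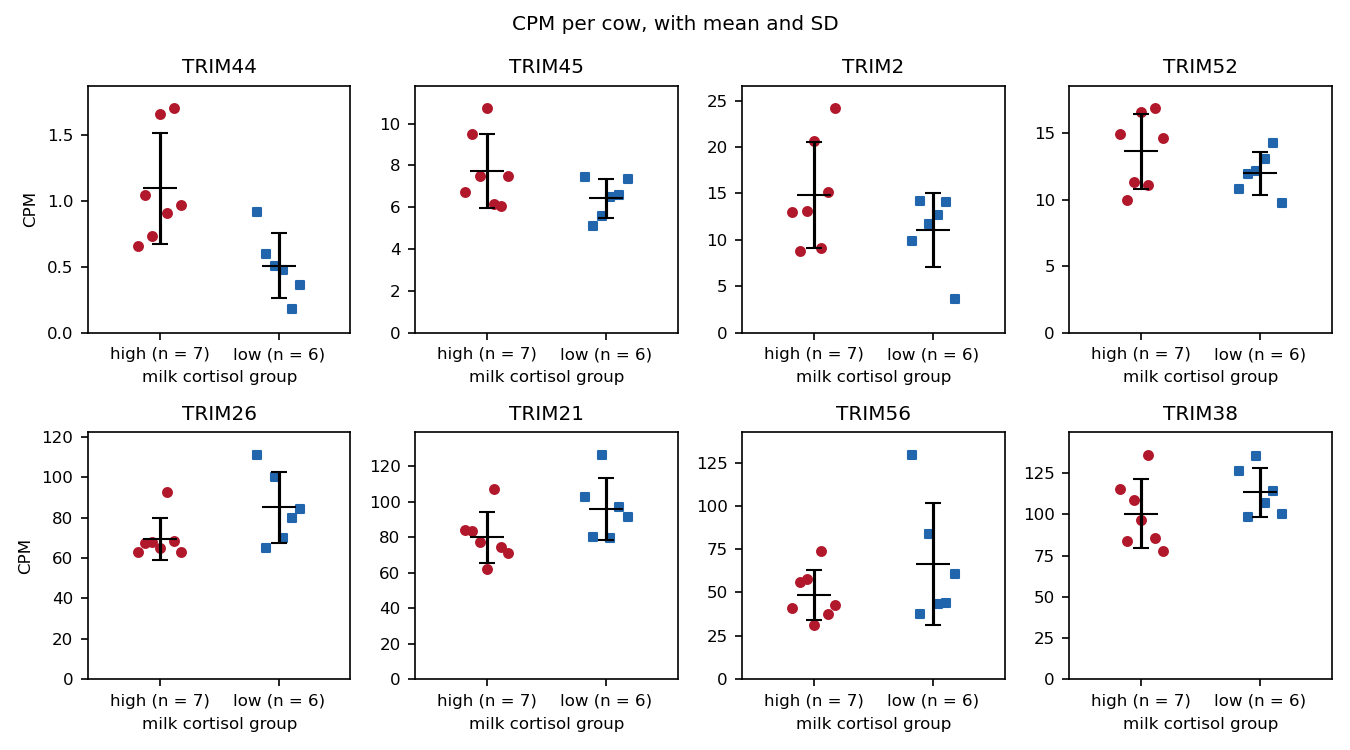
CPM per cow of the 8 TRIM genes with the smallest unadjusted p in each direction, in the high (red, n = 7) and low (blue, n = 6) cortisol groups, with the mean and SD as bars. All 8 panels overlap between the groups, and *TRIM44* is the one in which all 7 high cows are above the low median of 0.492 CPM.

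The other members with the smallest p among positive values were *TRIM45*, which carries a filamin domain, *TRIM2*, an NHL-repeat ligase of neurofilaments, and *TRIM52*, a short member without a C-terminal domain. *TRIM45* was at 6.06, 7.48 and 10.7 CPM in the high group and at 5.11, 6.53 and 7.43 CPM in the low group (lowest, median and highest), and its log2 fold change was 0.27 (standard error 0.18, edgeR unadjusted p = 0.152). *TRIM2* was at 8.81, 13.1 and 24.1 CPM in the high group and at 3.61, 12.2 and 14.2 CPM in the low group, and its log2 fold change was 0.43 (standard error 0.29, edgeR unadjusted p = 0.163). *TRIM2* was highest in high replicate 7, which also had the highest haemoglobin share (0.815%), and lowest in low replicate 13, which had the lowest (0.0114%). Other cows differed, with 9.13 CPM of *TRIM2* in high replicate 5 (share 0.262%) and 20.6 CPM in high replicate 4 (0.0968%). With the haemoglobin share as a covariate the log2 fold change of *TRIM2* was -0.04. The share reached 0.815% in the high and 0.0552% in the low group, so group and share cannot be told apart in this fit. For *TRIM52* the log2 fold change was 0.19 (standard error 0.16, edgeR unadjusted p = 0.249).

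Of the classes, the NHL-repeat and filamin-domain members (*TRIM2*, *TRIM3*, *TRIM32* and *TRIM45*) had log2 fold changes from 0.01 to 0.43 and the antiviral members from -0.45 to 0.06, and the chromatin cofactors *TRIM24*, *TRIM28* and *TRIM33* ran from -0.13 to 0.25. None of these values passed the adjusted threshold. *TRIM10*, an erythroid member, was highest in high replicate 7 (8.89 CPM), the cow with the highest erythroid score, and lowest in high replicate 4 (1.15 CPM). Low replicate 13, with the lowest erythroid score (-0.878), had 7.40 CPM of *TRIM10*, and high replicate 5, with a score of 0.861, had 3.24 CPM. The relation of *TRIM10* to the erythroid score was not tested. The log2 fold change of *TRIM10* between the groups was -0.06 (standard error 0.34).

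The members of the class set here as membrane and ARF-domain, *TRIM13*, *TRIM23*, *TRIM37* and *TRIM59*, ran from -0.02 for *TRIM37* to 0.26 for *TRIM59*. A class without a common function had log2 fold changes from -0.20 for *TRIM62* to 0.19 for *TRIM52*. Its tested members were *TRIM7*, *TRIM8*, *TRIM10*, *TRIM11*, *TRIM17*, *TRIM27*, *TRIM35*, *TRIM41*, *TRIM47*, *TRIM52*, *TRIM62* and *TRIM68*. The microtubule-binding members *TRIM9* and *TRIM36* had -0.53 (standard error 0.47) and -0.35 (standard error 0.35), on 2 to 20 and 13 to 73 reads per cow.

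The members below the filter were close to the limit of detection. *TRIM46* had 90 reads over 13 cows, with 0 to 1.2 CPM, *TRIM66*, a testis member of the chromatin cofactor class, had 121 reads and 0 to 0.908 CPM, and *TRIM72*, which repairs muscle membranes, had 57 reads and 0 to 0.650 CPM. They entered the fits without a filter and by DESeq2, in which none of the 35 members passed between the groups.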

How the data were processed

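Whole-blood RNA of 13 cows (7 high and 6 low milk cortisol, grouped by the sample labels) was analysed. The animal number in the header of each table is not the number in that table's name, and the folder given there has goat in its name, so the group of a table rests on the labels alone. The authors deposited counts, the whole number of reads per gene name, without normalization. The file headers give featureCounts 1.4.6-p3 on the exons of Ensembl release 88 for UMD3.1, with no option for strand or for reads that map to several places, and positions are on UMD3.1. The submitters' processing notes name STAR 2.7.3, Subread 1.6.5 and ARS-UCD1.2 instead. Genes without a name share 1 entry with 13.9% to 16.7% of the deposited counts, which was left out.

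TMM scaling was applied, and CPM and log2 CPM with a prior count of 2 were derived from it. Fits used edgeR 4.0.16 (quasi-likelihood, robust) in R 4.3.3 over 11033 genes that passed filterByExpr (minimum count 10, minimum total 15), with Benjamini-Hochberg adjustment over all of them. Fits were made on the group, on the group and the interferon score, and on their interaction. Standard errors are the coefficient divided by the square root of F. The interferon score and single genes were compared by exact permutation over all 1716 ways to divide the cows 7 to 6, for which p cannot be below 5.8e-04. The alternatives were DESeq2 1.42.0, limma-voom (limma 3.58.1), RLE factors, no filter, each cow left out in turn, a core list of 13 interferon genes (11 tested), and haemoglobin share, interferon score or neutrophil and T cell scores as covariates. The fit on 9 cows was added after the scores were seen. The fits were first tested on simulated counts.

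The members, the gene lists, the classes and the tests were chosen with earlier results of these data known. The genes named are *TRIM26*, the 4 members with the smallest p in each direction between the groups, those passing adjusted p 0.05 with the score, the 3 smallest p among negative slopes, and the 5 of highest level per kilobase. Others are named with ranges or were chosen after their values were seen. Limits set by counts cover counting error only.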

Additional observations from a re-analysis of the deposited data

Results flagged for a closer look

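Each tested TRIM gene and the interferon score were searched, within each cortisol group, for a cow far from the others (Dixon's ratio above its 95% critical value). Of 66 gene or score and group sets, with both ends searched, 5 held such a cow, where chance gives about 1 in 20, or 3.3. *TRIM26* in high replicate 5 was at 92.5 CPM, and the other 6 high cows were between 62.8 and 68.4 CPM. The same cow had an interferon score of 1.38 SD, and the others of its group were between -1.11 and -0.17. High replicate 4, the library that stood apart, had 31.8 CPM of *TRIM33* against 9.21 to 12.6 CPM in the other high cows and 8.11 CPM of *TRIM23* against 1.6 to 3.78 CPM. In the low group, *TRIM33* was at 14.0 CPM in replicate 9 and between 10.7 and 11.8 CPM in the others.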

How the results depend on the processing

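No member passed an adjusted p of 0.05 between the cortisol groups or in the interaction under any alternative run. The number of members with an unadjusted p below 0.05 between the groups was 2, and it was 1 with limma-voom, 0 with the haemoglobin share and 1 with the interferon score as a covariate, and 1 to 5 with 1 cow left out. The number that passed with the interferon score was 2. It was 1 with neutrophil and T cell scores as covariates, where *TRIM56* was lost, 0 with the core interferon list (adjusted p of 0.0537 for *TRIM26* and 0.121 for *TRIM56*), 0 in the 9 cows of the lower set, and 0 to 3 with 1 cow left out. Unadjusted, 4 to 9 members had a slope and 0 to 2 an interaction at p below 0.05 with 1 cow left out, and 3 were correlated with the score in the 9 cows when the core list made it, instead of 8, or 2 to 10 with 1 cow left out. Shares of all genes were taken for the main settings alone, so the counts under the alternatives describe the members only. The difference in the interferon score between the groups was -0.58, and -0.77 to -0.37 with 1 cow left out.

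Values that changed sign were the log2 fold change of *TRIM2* with the haemoglobin covariate (-0.045), that of *TRIM56* with the interferon covariate (0.052), the slope of *TRIM38* in the 9 cows (-0.026) and the correlation of *TRIM38* without high replicate 7 (-0.40) or low replicate 13 (-0.03), with a range of -0.40 to 0.26 over all cows left out, and the cause was not tested. Of 461 recomputed values of single genes and direction counts, 432 kept their direction and side of the threshold. Of 146 recomputed main counts and scores, 119 did. A count was held as kept when it was equal or near to the main count. Leaving out a cow outside the 9 leaves the correlations unchanged, so those values were kept by construction. No paired analysis was possible because the groups share no replicate number. Genes of 2 to 27 reads per cow, such as *TRIM44*, are limited by depth.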

Other observations

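Apart from high replicate 4, the cows that most often held the highest or lowest TRIM level were high replicate 5, high replicate 7 and low replicate 13. High replicate 5 was highest for 5 members (*TRIM11*, *TRIM14*, *TRIM35*, *TRIM38* and *TRIM68*) and lowest for 3 (*TRIM23*, *TRIM24* and *TRIM33*), of 32 tested. It was highest in 10.7% and lowest in 10.0% of all genes tested. High replicate 7 was highest for 4 members (*TRIM2*, *TRIM10*, *TRIM17* and *TRIM41*) and lowest for 3 (*TRIM26*, *TRIM38* and *TRIM62*). It was highest in 6.63% and lowest in 7.36% of all genes tested. Low replicate 13 was highest for 5 members (*TRIM3*, *TRIM8*, *TRIM28*, *TRIM62* and *TRIM65*) and lowest for *TRIM2* and *TRIM52*. It was highest in 12.3% and lowest in 11.6% of all genes tested. Low replicate 11 held neither the highest nor the lowest level of any tested member.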
